A study of Mus musculus with 10 samples.

Results

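Bile leaves the liver through a small set of membrane transporters, and 10 of their genes were described here: Slc10a1, Slco1b2, Slco1a1, Abcb11, Abcb4, Abcc2, Abcc3, Slc51a, Slc51b and Slc10a2. They were chosen as a list of symbols and matched to Ensembl gene IDs, and all 10 were found among the 49585 genes of both count tables. Hepatocytes take bile acids up from the blood at their sinusoidal face, with the sodium-coupled carrier encoded by Slc10a1 and the organic anion carriers encoded by Slco1b2 and Slco1a1. At the canalicular face Abcb11 pumps bile acids into bile, Abcb4 moves phosphatidylcholine and Abcc2 exports conjugated anions such as bilirubin glucuronides. Abcc3 and the heterodimer of Slc51a and Slc51b export bile acids back to the blood side, and Slc10a2 takes them up at the apical face of ileal enterocytes and of bile duct cells.

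The study sequenced bulk RNA of mouse liver cells from a hepatocellular carcinoma model named for triple knockout of the Rb gene family. The series holds 10 samples in 5 groups of 2, and each is labelled as primary liver cells with no treatment. Livers or visible lesions were digested, and cells positive for YFP, a reporter of Cre recombination at floxed alleles, were sorted. Libraries were tied by column name to Ck19-derived organoids (n = 2) and Sox9-derived organoids (n = 2), which are cultures named after a bile duct keratin and a duct and progenitor transcription factor. The labels give neither the genotype nor the strain, sex, age or Cre driver of these cultures, and do not state whether the 2 libraries of each culture are from different mice. P-values therefore measure only the spread between these libraries, which may be technical. A further pair of columns carries the name Sox9 with a TKO tag. No label says whether the tagged or the untagged columns are the Sox9-derived organoids, so the untagged pair was used for the organoids and the tagged pair was kept apart and read as the alternative. Columns for the Epcam-negative, Epcam-high and Thy1-positive cells were not matched by name, and those groups were not analysed here.

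The 4 organoid libraries held 31883180 to 36606008 fragments assigned to genes, and the tagged libraries 53280136 and 59664959. Levels are given as CPM, in which fragments are scaled to a common library total. The organoids carried biliary markers: the duct keratin gene Krt19 stood between 1945 and 3120 CPM and Epcam between 2101 and 3833 CPM, while albumin (Alb) reached at most 20.4 CPM. The tagged pair went the other way, with Krt19 at 0.619 and 1.61 CPM, Epcam at 8.99 and 5.61 CPM and Alb at 21740 and 13158 CPM. Of 12 biliary markers 7 were lower in it than in the Ck19-derived pair and 5 were not called by edgeR, among them Sox9 at 63.8 and 106 CPM (97.0 and 78.4 CPM in the Ck19-derived libraries), Krt8 and Krt18. Prom1, also not called, stood at 0.0563 and 42.0 CPM in the tagged libraries against 760 and 754 CPM in the Ck19-derived ones. Krt19 and Epcam thus went against a reading of the tagged pair as duct organoids, while Sox9 itself was not called against the Ck19-derived pair. Sox9 stood higher in the untagged Sox9-derived libraries, at 567 and 562 CPM, without overlap with the tagged pair. All 12 hepatocyte markers listed were detected in the tagged pair. Endothelial markers summed there to 106 and 79.1 CPM, mesenchymal markers to 334 and 177 CPM and myeloid markers to 244 and 181 CPM. In bulk RNA, fewer cells of a type and less RNA per cell cannot be told apart. The female transcript Xist had 1923 and 1869 fragments in the Ck19-derived libraries and 1 or 2 in each of the other 4, whereas the Y-linked gene Eif2s3y had 3 in each Ck19-derived library and at least 2615 elsewhere. Sex and pair therefore cannot be told apart in any comparison with the Ck19-derived pair.

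Of the 10 transporter genes, Abcc3 and Slc10a2 were expressed in the organoids and the others were at or near 0. The filter on low counts passed these 2 genes and left out 8. Abcc3 (ENSMUSG00000020865, chromosome 11, 94343295 to 94392997, minus strand, GRCm38) stood at 230 and 165 CPM in the Ck19-derived libraries against 42.1 and 62.5 CPM in the Sox9-derived ones. Both Sox9-derived values lay below both Ck19-derived values, which was so for 26.3% of the 16653 genes tested. The means were 198 ± 45.6 CPM and 52.3 ± 14.4 CPM (SD, n = 2 each), 3.78-fold apart in the fit. The log2 fold change of −1.92 (SE 0.30) missed the threshold of 0.05 in edgeR's quasi-likelihood test (adjusted p = 0.0847, unadjusted p = 0.00144). It was called without Sox9-derived replicate 1 or 2 (edgeR adjusted p = 0.00943 and 0.00250) and not without either Ck19-derived replicate (adjusted p = 0.494 and 0.447).

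Slc10a2 (ENSMUSG00000023073, chromosome 8, 5083219 to 5105351, minus strand) stood at 8.81 and 13.1 CPM in the Ck19-derived libraries against 6.09 and 10.4 CPM in the Sox9-derived ones. The pairs overlapped. The log2 fold change was −0.40 (SE 0.43, edgeR adjusted p = 0.700), so that a difference was not detectable beyond the spread between replicates. No member was therefore called by edgeR, against 0.570% of all genes tested (0.384% lower). At an unadjusted p under 0.05 the count was 1 of 2 (Abcc3), against 2792 of the 16653 genes tested. DESeq2 called Abcc3 (adjusted p = 1.98e-07) among 1512 of all genes, and limma-voom called neither (93 of all genes). Per kilobase of exon, the scale on which genes can be compared, Abcc3 was at 34.7 ± 7.99 and Slc10a2 at 2.64 ± 0.725 CPM in the Ck19-derived pair. The Sox9-derived pair had 9.18 ± 2.53 and 1.98 ± 0.730 CPM on that scale. Abcc3 was above Slc10a2 in each of the 4 libraries, with no overlap.

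**Figure D1:**
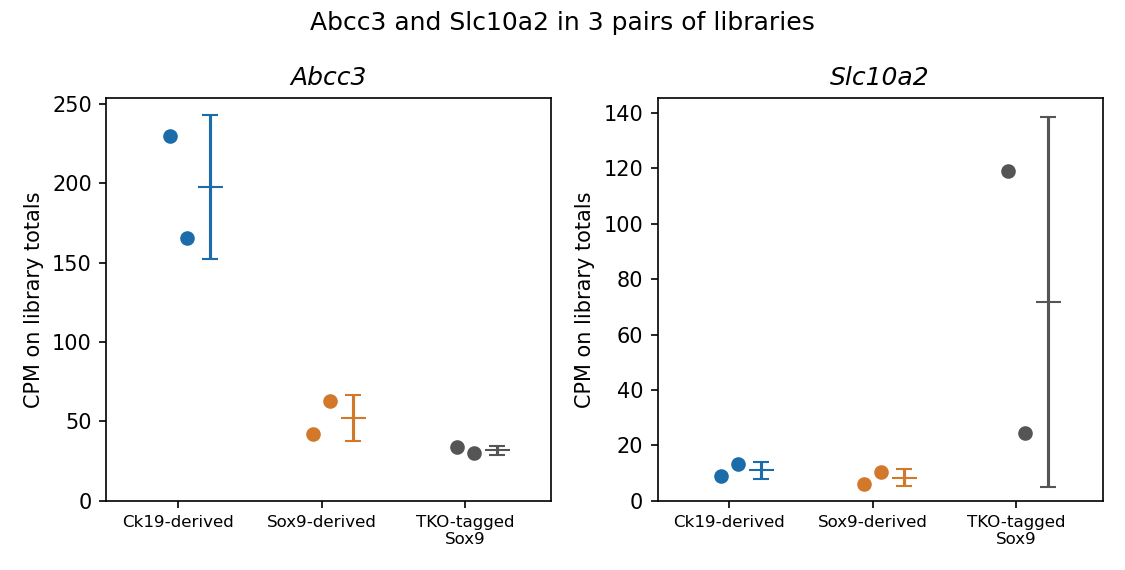
CPM on library totals (linear axes from 0) of Abcc3 and Slc10a2 in the Ck19-derived, Sox9-derived and TKO-tagged Sox9 pairs. Points are libraries, and the bar beside them is the mean with its SD (n = 2). Abcc3 is highest in the Ck19-derived pair at 165 and 230 CPM, while Slc10a2 is highest in the tagged pair, where its libraries stand at 119 and 24.5 CPM.

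The other transporters gave 0 to 9 fragments in each organoid library. For the hepatocyte uptake carriers, Slc10a1 had 6 and 3 fragments in the Ck19-derived libraries and 0 in both Sox9-derived libraries, Slco1a1 had 2 and 1 against 0 and 0, and Slco1b2 had 0 in all 4. For the canalicular pumps, Abcb11 had 4 and 4 fragments against 1 and 1, Abcb4 had 4 and 1 against 2 and 9, and Abcc2 had 2 and 0 against 0 and 3. The highest of these values was 0.271 CPM, for Abcb4 in Sox9-derived replicate 2. A count of 0 allows up to 3 fragments, which is 0.0820 to 0.0941 CPM in these libraries (counting error only), and most of these counts were at or near that limit. The counting error of pairs with 1 to 11 fragments was wide: the ratio of Sox9-derived to Ck19-derived totals was 0.232 for Abcb11 (exact binomial 95% interval 0.0240 to 1.16) and 2.04 for Abcb4 (0.653 to 7.48). Of the basolateral export pair, Slc51a had 0 fragments in every library and Slc51b had 1, in Sox9-derived replicate 2.

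Hepatocyte markers were also low in these organoids, as far as they were listed. Transthyretin (Ttr), a carrier protein of plasma, made up most of their sum at 103 to 543 CPM. The list summed to 141 and 168 CPM in the Ck19-derived and 181 and 551 CPM in the Sox9-derived libraries. Of the 12 genes, 1 was at 0 in each Ck19-derived library, and 6 and 3 were at 0 in the Sox9-derived libraries. Since Slc10a2 is known from ileal enterocytes too, their markers were read beside it. Fabp6, the ileal bile acid binding protein, and the intestinal homeobox gene Cdx1 were at 0 in all 4 organoid libraries. Cdx2, another intestinal homeobox gene, stood at 29.2 and 20.3 CPM in the Ck19-derived against 0.164 and 1.21 CPM in the Sox9-derived ones, and the villus gene Vil1 at 109 to 148 CPM in all 4. The part of other cell types in the Abcc3 and Slc10a2 values was not tested. The hepatocyte genes Slc10a1, Slco1b2 and Abcb11 were at or near 0 in the same libraries.

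**Figure D2:**
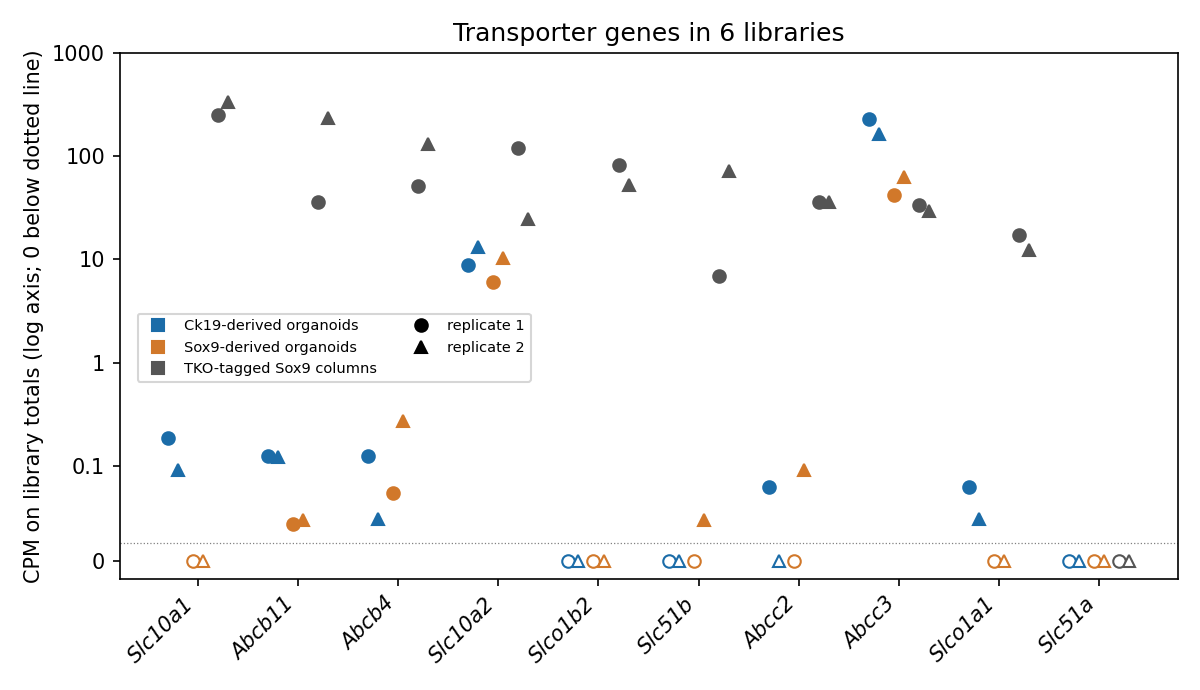
CPM on library totals (log axis, with values of 0 drawn as open symbols below the dotted line) of the 10 transporter genes in 6 libraries, coloured by pair, with circles for replicate 1 and triangles for replicate 2. Of the 10 genes, Abcc3 and Slc10a2 lie above 1 CPM in the organoids. In the tagged pair 9 lie between 6.89 and 332 CPM, and Slc51a is at 0 in all 6 libraries.

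The TKO-tagged pair expressed the hepatocyte set of transporters. Set against the Ck19-derived pair in place of the untagged libraries, 9 of the 10 genes passed the filter. Of these, 7 (all but Abcc3 and Slc10a2) passed only through the tagged libraries, where they are high, so that their call as higher was close to fixed by the filter and is given as a description. All 9 were called by edgeR, against 28.9% of the 17938 genes tested. The direction was higher for 8 (15.0% of genes) and lower for Abcc3 (14.0%). The tagged libraries were counted in a separate table and are the deeper ones, so table and depth cannot be told apart from the pair. Fewer of the 9 were called without Ck19-derived replicate 1 or 2, as over all genes. Every call that remained was of a gene tested only through the tagged libraries. Without replicate 1 or 2 the log2 fold change was −1.62 and −2.15 for Abcc3, and 3.24 and 3.76 for Slc10a2. The 12 hepatocyte markers were called higher too, 8 of them tested only because the tagged libraries are high, and the part of cell composition in the transporter values was not tested.

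Among the uptake carriers, Slc10a1 (chromosome 12, 80953185 to 80968079, minus strand) stood at 252 and 332 CPM in the tagged libraries, with 33243 fragments against 9 in the Ck19-derived pair. The ratio of totals was 2114 (95% counting interval 1113 to 4623, edgeR adjusted p = 0.000909). Slc10a1, Slco1b2 and Slco1a1 passed the filter only through the tagged libraries. Their calls as higher were thus close to fixed, and the adjusted p-values are given as a description. Slco1b2 (chromosome 6, 141629518 to 141686646, plus strand) stood at 82.9 and 52.6 CPM. With 0 fragments in the Ck19-derived pair and a floor of 3 over that pair, it was at least 1442-fold higher (edgeR adjusted p = 0.00215). Slco1a1, on the same chromosome (141907282 to 141946962, minus strand), stood at 17.1 and 12.2 CPM, with a ratio of 313 from 3 fragments in the Ck19-derived pair (107 to 1518, edgeR adjusted p = 0.00221). Its close relative Slco1a4, another organic anion carrier, stood at 13.8 and 39.5 CPM. Of the 50-base stretches of the Slco1a1 transcripts, 1.58% occur in Slco1a4 as well, where a fragment can map to both.

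The canalicular genes differed in how well the tagged libraries agreed. Each of them passed the filter only through the tagged libraries. Their calls as higher were thus close to fixed, and the adjusted p-values below are given as a description. Abcc2 (chromosome 19, 43782192 to 43840740, plus strand) stood at 35.6 and 35.8 CPM, a spread of 0.0881 CPM (SD, n = 2), with a ratio of 1154 from 2 fragments in the Ck19-derived pair (319 to 9531, edgeR adjusted p = 0.00206). Abcb4 (chromosome 5, 8893717 to 8959231, plus strand) stood at 51.7 and 132 CPM and was higher at edgeR adjusted p = 0.00235, with ratios of 668 (286 to 2059) and 1708 (732 to 5262) for tagged replicates 1 and 2 alone. Abcb11 (chromosome 2, 69238282 to 69342616, minus strand) stood at 35.9 and 236 CPM, 6.59-fold apart between the tagged libraries, and was higher (edgeR adjusted p = 0.00701, or 0.0756 and 0.0790 without Ck19-derived replicate 1 or 2). Its ratio to the Ck19-derived pair was 290 (147 to 672) for tagged replicate 1 and 1910 (969 to 4426) for replicate 2. Both tagged values of each of these genes lay far above the Ck19-derived values, of which the highest was 0.125 CPM. Without 1 Ck19-derived library the fitted log2 fold change ran from 9.78 to 13.97 for Abcc2, from 10.17 to 12.14 for Abcb4 and from 11.28 to 12.34 for Slc10a1. Predicted genes on the opposite strand share 3.01% of the exon bases of Abcb11, and the counting ignored strand.

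The genes of bile acid export to the blood moved in different directions. Abcc3 stood at 33.7 and 29.7 CPM in the tagged pair. On library totals this lay below all 4 organoid libraries, but with TMM scaling the log2 fold changes of the tagged and the Sox9-derived pair, from fits that share the Ck19-derived libraries, were −1.88 and −1.92. Both values lay below the Ck19-derived libraries, as for 58.9% of genes tested, and Abcc3 was lower there (log2 fold change −1.88, SE 0.29, edgeR adjusted p = 0.0125). Without Ck19-derived replicate 1 or 2 its adjusted p was 0.111 and 0.0668. Slc51b (chromosome 9, 65412714 to 65422955, minus strand) stood at 6.89 and 71.5 CPM, 10.4-fold apart, and was called higher than in the Ck19-derived pair, where it had 0 fragments (edgeR adjusted p = 0.0225, or 0.107 and 0.110 without Ck19-derived replicate 1 or 2). With a floor of 3 fragments over that pair it was at least 148-fold higher in replicate 1 and at least 1540-fold higher in replicate 2. Slc51b passed the filter only through the tagged libraries, so its call was close to fixed and is given as a description. Its partner gene Slc51a (chromosome 16, 32475522 to 32487879, minus strand) had 0 fragments in both tagged libraries, which allows up to 0.0563 and 0.0503 CPM. No gene overlaps the exons of Slc51a, though 16.2% of its 50-base stretches also occur in Pcyt1a. For Slc51b, 12.8% of exon bases are shared with Rasl12 on the opposite strand. Slc10a2 was higher at 119 and 24.5 CPM in the tagged pair, by 3.50 on the log2 scale (SE 0.84; edgeR adjusted p = 0.0357). The difference was 1.91 without tagged replicate 1 and 4.30 without tagged replicate 2. With limma-voom its adjusted p was 0.110, with the replicate number as a block 0.0763, and without Ck19-derived replicate 1 or 2 it was 0.231 and 0.203.

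Per kilobase of exon, the order in the tagged pair began with Slc10a1 at 174 ± 34.1 CPM, whose lower library (150 CPM) was above every other transporter value. Next came Slc51b (55.3 ± 64.4 CPM), Abcb11 (26.5 ± 27.6 CPM), Slc10a2 (17.3 ± 16.1 CPM), Slco1b2 (13.8 ± 4.34 CPM) and Abcb4 (9.80 ± 6.06 CPM), and neighbours in this stretch overlapped. Abcc3 followed at 5.56 ± 0.497 CPM and overlapped Abcb4. Abcc2 at 4.18 ± 0.0103 CPM and Slco1a1 at 2.78 ± 0.652 CPM lay below it without overlap, and Slc51a was at 0. In the organoids, by contrast, Abcc3 stood first.

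**Figure D3:**
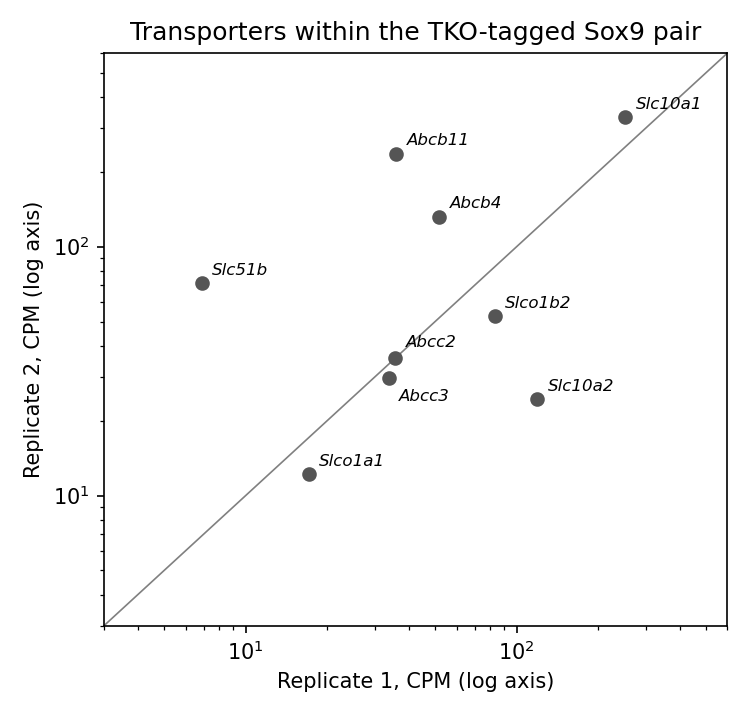
CPM of replicate 1 (x) against replicate 2 (y) of the TKO-tagged Sox9 pair for the 9 transporter genes detected there, on log axes, with the line of equal values. Abcb11, Slc51b and Abcb4 lie above the line and Slc10a2 and Slco1b2 below it, while Abcc2 sits on it.

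The tagged libraries differed from each other more for some transporters than for most genes. Among 9991 tested genes whose mean in the pair reached 5 CPM, 3.25% differed at least 4-fold between these libraries, and the median was 1.37-fold. Abcb11 (6.59-fold) and Slc51b (10.4-fold) were higher in replicate 2, and Slc10a2 (4.87-fold) was higher in replicate 1. The bile acid receptor FXR, encoded by Nr1h4, is known to induce Abcb11, Slc51b and the corepressor gene Nr0b2, and Nr0b2 in turn is known to repress the synthesis genes Cyp7a1 and Cyp8b1. Nr0b2 stood at 117 and 631 CPM, Cyp8b1 at 17.7 and 6.37 CPM, and Cyp7a1, the rate-limiting enzyme of the classic pathway, at 1.03 and 0.0168 CPM (55 fragments and 1). Nr1h4 itself stood at 82.1 and 61.9 CPM. These genes were picked after their values were seen, no full list of FXR or Nr0b2 targets was read, and with 1 library on each side there is no test. The other transporters were not sorted by whether FXR is known to induce them too. Among them Abcc2 stood at 35.6 and 35.8 CPM, Slc10a1 at 252 and 332 CPM, Abcb4 at 51.7 and 132 CPM and Slc51a at 0 in both libraries. The marker sums differed too between replicates 1 and 2: biliary 6596 and 3611 CPM, mesenchymal 334 and 177 CPM and ileal enterocyte 1961 and 239 CPM, the last mostly from the apolipoprotein gene Apoa4 at 1766 and 90.9 CPM. Their part in the transporter values was not tested.

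The starts of these genes were read for letters of motifs known from bile acid gene control, because 8 of them were called higher in the tagged pair. For 7 of these the call was close to fixed by the filter, and shared control was not tested. Promoters, 250 bases before to 50 after the start, were taken from RefSeq (GRCm38.p6) and were found for 9 of the 10 genes, all but Abcc3. The members were counted by gene and the background by promoter. Slc10a1 had more than 1 promoter and so more chances to match. The inverted repeat with a spacer of 1 base that FXR is known to bind (AGGTCA, 1 base, TGACCT, at most 3 mismatches, both strands as for all motifs) was found in 6 of 9, against 11.4% of all 32851 promoters. A direct repeat with a spacer of 1 base (AGGTCA, 1 base, AGGTCA, at most 3 mismatches) was found in 4 of 9 against 24.6%, and an everted repeat with a spacer of 8 bases (TGACCT, 8 bases, AGGTCA, at most 3 mismatches) in 3 of 9 against 11.8%. The repeats share their 6-letter arms, so their matches can overlap, and in Abcb11 the inverted and direct repeats matched the same bases. The closest matches to the inverted repeat, each with 1 mismatch, are shown 5′ to 3′ on the gene's strand with the matched letters in capitals:
Abcb11, inverted repeat, chr2:69342661-69342685, minus strand, 1 mismatch, first capital at −63 from the start: gactttAGGCCATTGACCTataagc
Slco1b2, inverted repeat, chr6:141629424-141629448, plus strand, 1 mismatch, first capital at −88: ttgtgtAGGACAGTGACCTgaagag
The matches describe letters in these windows and were not tested for binding. Of the genes with the closest inverted repeats, Abcb11 was higher in tagged replicate 2 and Slco1b2 (82.9 and 52.6 CPM) in replicate 1. The difference for Slco1b2 was 1.58-fold, near the median of 1.37-fold over tested genes of at least 5 CPM. With 1 library on each side, a relation to the motif was not tested. Slc51a, which was at 0 throughout, was among the 6 genes with a match to the inverted repeat.

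The wider bile acid gene lists held 73 genes that are not among the 10, and 51 of them were tested between the organoid pairs. Of these, 1 rose in the Sox9-derived organoids, 0 fell and 50 were not called (0.570% of all genes were called). The gene that rose was Acox2, a peroxisomal oxidase that shortens the side chain of bile acid precursors, at 55.1 and 48.8 CPM in the Ck19-derived and 353 and 325 CPM in the Sox9-derived libraries. Its log2 fold change was 2.71 (SE 0.18, edgeR adjusted p = 0.0358), and the call was lost with the replicate block (adjusted p = 0.0970) and without Ck19-derived replicate 1 or 2 (0.418 and 0.401). The median of the 51 was 0.19, against 0.01 over all genes tested.

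Apart from Acox2, the listed genes were tested in the organoids with none called. The genes named here are among the 2 with the highest mean CPM in each list. Among regulators, 10 of 14 genes were tested. The hepatocyte factor Hnf4a stood at 129 to 136 CPM in the Ck19-derived and 82.4 to 104 CPM in the Sox9-derived libraries (edgeR adjusted p = 0.275). Of the other anion and drug carriers 11 of 15 were tested, led by Slco3a1 at 63.9 to 284 CPM and the monocarboxylate carrier Slc16a1 at 36.3 to 95.1 CPM. In biliary lipid export 5 of 8 were tested, led by the flippase subunit Tmem30a (116 to 172 CPM) and the lipoprotein receptor Scarb1 (57.1 to 94.1 CPM). In apical trafficking and anchoring 10 of 11 were tested, led by the membrane linkers Ezr (689 to 1199 CPM) and Slc9a3r1 (230 to 421 CPM). In duct fluid and bicarbonate secretion 8 of 9 were tested, led by the carbonic anhydrase gene Car2 (931 to 2425 CPM) and the potassium channel gene Kcnn4 (296 to 468 CPM). The ileal list, whose tested genes were Slc10a2 and the fatty acid binding protein gene Fabp2 (at most 0.886 CPM), added no call.

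In the tagged pair genes of bile acid synthesis were called higher and some of duct secretion lower. Against the Ck19-derived pair, 68 of the 73 genes were tested, of which 34 rose, 10 fell and 24 were not called (15.0% and 14.0% of all genes). Of the 68, 17 were not tested between the organoids and passed the filter here only with the tagged libraries, so these counts are a description. In bile acid synthesis and conjugation 12 of 12 tested genes rose, 6 of which were tested only with the tagged libraries, among them the conjugating enzyme Baat at 102 and 151 CPM, the acyl-CoA synthetase Slc27a5 at 236 and 279 CPM and Cyp2c70, which makes muricholic acids in mice, at 315 and 1085 CPM. Cyp7a1 and Hsd3b7 were not tested. Hsd3b7 had 0 fragments in all 6 libraries, and 99.2% of its exon bases lie in exons of overlapping genes. Of the regulators 7 of 13 tested rose and 0 fell, with Nr0b2, Nr1h4 and Hnf4a (169 and 263 CPM) among them. Of the other carriers 8 rose and 4 fell. Abcc6 was among those that rose, at 29.6 and 36.8 CPM, and the drug pumps Abcc1 (0.901 and 0.989 CPM) and Abcc4 (1.93 and 1.51 CPM) fell beside their relative Abcc3.

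In lipid export 4 of 8 rose, among them the sterol half-transporters Abcg5 (20.9 and 23.0 CPM) and Abcg8 (18.1 and 14.9 CPM), and 1 fell. In apical trafficking and anchoring 2 rose, 2 fell and 7 were not called. The scaffold gene Pdzk1 rose from at most 0.125 CPM to at least 38.3 CPM, and Ezr fell to 45.1 and 19.3 CPM. Of 8 tested duct secretion genes 0 rose, 3 fell (Cftr, Ano1 and Car2) and 5 were not called. The chloride channel gene Ano1 stood at 0.206 and 0.117 CPM against 188 and 171 CPM in the Ck19-derived pair. In the ileal list the 3 genes tested rose, namely Slc10a2, Slc51b and Fabp2, and the first 2 are counted above as transporters. Without Ck19-derived replicate 1 or 2 the wider lists held fewer called genes than these 44, as did the genes tested as a whole. Scaled by library totals alone, the median log2 fold change of all genes moved from −0.07 to −0.82, and the calls over all genes went from 2683 higher and 2507 lower to 1960 and 5158. All 9 transporters kept their direction and their call under that scaling. For all but Abcc3 and Slc10a2 this was close to fixed, since they passed the filter only through the tagged libraries.

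**Figure D4:**
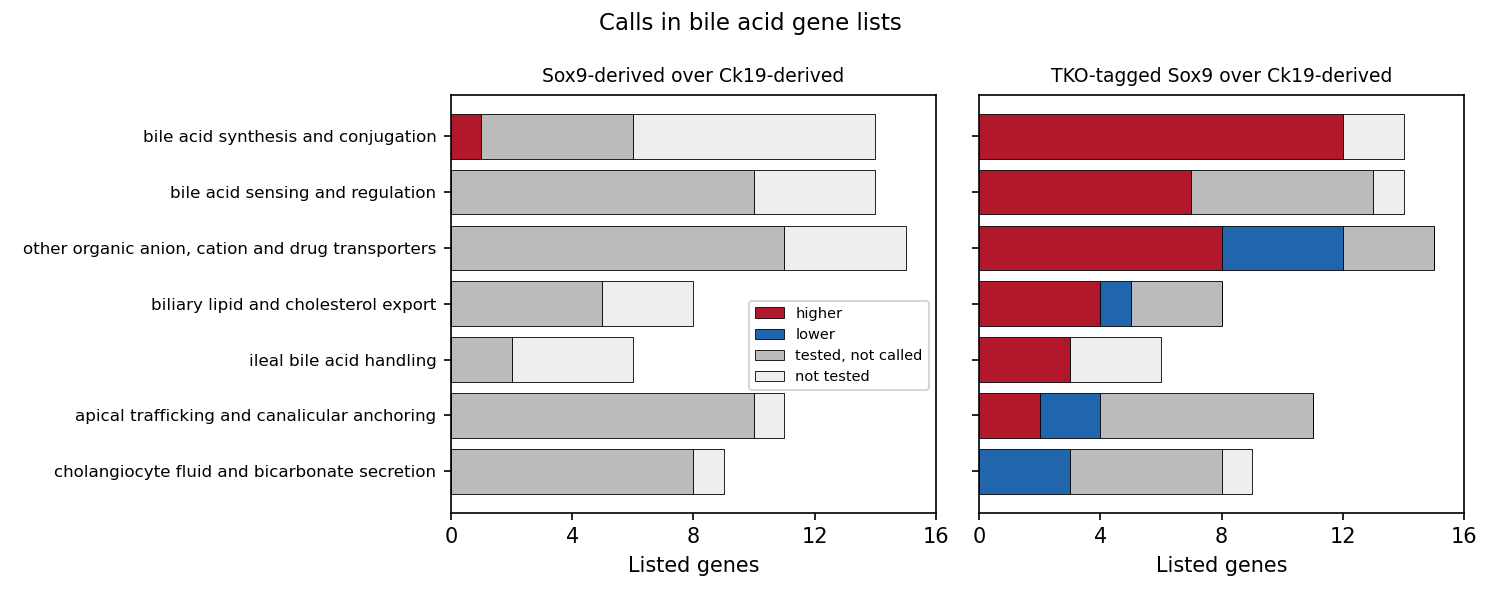
Number of listed genes (x) in 7 bile acid gene lists that were higher, lower, tested and not called, or not tested by edgeR, in the Sox9-derived (left) and TKO-tagged Sox9 (right) libraries over the Ck19-derived pair, which both comparisons share. On the left 1 gene is called, and on the right 12 of 14 synthesis genes are higher (6 of them tested only there) and 3 of 9 duct secretion genes are lower.

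Genes with a pattern like that of the organoid transporters were sought over the 4 organoid libraries, as the smallest largest difference in log2 CPM after centring each gene. Nearest to Abcc3 were Rab17, a small GTPase of epithelial trafficking, with a largest difference of 0.10 (29.5, 20.0, 5.76 and 7.87 CPM in Ck19-derived replicates 1 and 2 and Sox9-derived replicates 1 and 2), then Fam83e (0.11) and the predicted gene Gm11168 (0.12). Nearest to Slc10a2 were the predicted genes Gm11878 (0.04) and Gm10029 (0.06) and the sterol isomerase gene Ebp (0.05, at 156 to 322 CPM). These were the 3 nearest of 16652 genes to each over 4 points, and 12 genes lay within 0.1 of Slc10a2. The predicted genes had few fragments, with Gm11168 at 0.0820 to 0.784 CPM, Gm11878 at 0.219 to 0.519 CPM and Gm10029 at 0.246 to 0.611 CPM. Counting error was not part of this distance.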

How the data were processed

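Bulk RNA was sequenced from mouse liver cells and organoids. The deposited values are raw counts: fragments per gene, counted by the authors on GRCm38 and Ensembl release 87. The tool was featureCounts v1.5.0-p3, set to ignore strand, to need both mates mapped and to skip secondary alignments and mapping quality under 10, per the file headers. STAR 2.5.4b is listed per the submitters' processing notes. Duplicates flagged in the deposited summaries numbered 0, so any PCR copies were counted and intervals cover counting error only. Low mapping quality took 33.2% to 40.9% of fragments. Columns were tied to samples by name, and 4 columns that match no sample were not used. The members and lists were chosen with earlier results of these data known.

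CPM were computed on library totals. Counts were filtered with filterByExpr (minimum count 10), scaled by TMM and tested with edgeR 4.0.16 in R 4.3.3 over the whole table (2 residual degrees of freedom), with Benjamini-Hochberg adjustment, two-sided. DESeq2 1.42.0 and limma-voom (limma 3.58.1) were alternatives. Symbols matched 49326 of 49585 gene IDs. Named genes are the 10 members, called list genes or otherwise the 2 with the highest mean CPM in each list, and the 3 nearest genes by pattern; the other genes named were chosen after their values were seen. A gene that this rule picks is not reported here. Mean chi-square per gene within pairs was 62.8 (Ck19-derived), 118 (Sox9-derived) and 412 (tagged), so no library was a copy of another. The edgeR script was tested on simulated data with known changes before use. For the organoid comparison it recovered 12% of 2-fold and 74% of 4-fold changes. For the tagged comparison it recovered 8% and 62%, so genes not called can still differ by such amounts.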

Additional observations from a re-analysis of the deposited data

How the results depend on the processing

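Between the organoid pairs edgeR called 95 genes, against 506 without the count filter, 1512 by DESeq2 and 0 with the replicate block (2665 at an unadjusted p under 0.05), and 0 to 1394 when 1 library was left out (without Ck19-derived replicate 1 or 2, 0 genes, with 1692 and 1611 at an unadjusted p under 0.05). With the TKO-tagged columns in place 5190 were called. Of the transporters 0 were called, against 1 without the count filter, 1 by DESeq2, 0 to 1 without 1 library and 9 with the tagged columns. Of the wider bile acid lists 1 gene was called, against 11 by DESeq2, 0 with the replicate block, 0 to 13 without 1 library and 44 with the tagged columns. In the tagged comparison, whose alternatives were added after seeing the data, 5190 calls became 3319 with the replicate block and 881 to 6976 without 1 library, the 9 called transporters 5 to 9, and the 44 list genes 19 to 52. Of 233 values of single genes under alternatives, 223 kept their direction and 198 also their side of the threshold. These include the tagged comparison, where 7 transporters passed the filter only through the tagged libraries, so their direction was close to fixed. With the tagged columns the log2 fold change turned to 3.50 for Slc10a2, 1.46 for Hnf4a, −3.05 for Slco3a1, 0.78 for Slc16a1, 2.62 for Scarb1, 8.42 for Fabp2, 0.30 for Slc9a3r1, −1.36 for Car2 and −5.79 for Kcnn4. That of Tmem30a was 0.12 without Ck19-derived replicate 1, against −0.49 without replicate 2. These alternatives use other libraries, and the cause was not tested otherwise. Same-numbered libraries did not deviate together (r = 0.0526 across genes, which are not independent), so the numbers were not taken as pairs. With 1 library left in a group its spread is assumed to equal that of the other pair. Depth limits 8 transporters in the organoids, which had at most 9 fragments in a library.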
